A study of Mus musculus with 12 samples.

Results

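Lung microRNAs were compared between 3 unirradiated mice fed a diet with 10% flaxseed for 21 days (mice 11, 12 and 13) and 3 unirradiated mice on the control diet (mice 2, 4 and 5). These 6 mice were taken by their group labels from a series of 12 C57BL/6 mice. The other 6, 3 on each diet, received 13.5 Gy of radiation and were sampled 48 h later; they share no mouse with the comparison, but they entered the same model to estimate the spread. All 12 mice are of 1 inbred strain and none carries a labelled genetic change; their age and sex, and what the control diet held, are not given in the labels. Each sample is whole lung RNA measured with TaqMan OpenArray quantitative PCR, in which every microRNA assay is a separate small reaction. The assays are primed in separate pools, A and B, marked by the last letter of the assay name, and the pools are reported apart. Of 326 assays with any signal in the 12 mice, 312 are microRNA assays with a name, 194 of them in pool A and 118 in pool B. A test was run on the 296 seen in 2 or more of the 3 mice of every group (181 of pool A, 115 of pool B).

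MicroRNAs are short RNAs cut from hairpin precursors. They lower the output of messenger RNAs, which they find mainly through the seed, bases 2 to 8 of the mature strand, so microRNAs that share a seed form a family with overlapping targets. A hairpin can give a mature strand from either arm, and neighbouring hairpins are often cut from 1 long primary transcript; the less used arm carries a # in most of these assay names. Flaxseed is rich in lignans and in an omega-3 fatty acid, and it has been studied in mouse lung as a dietary agent against oxidative and radiation injury. The comparison here asks what the diet alone goes with, before any radiation.

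The sequences that carry the results are given first, so that family members can be told apart by eye. They are the mature strands of RefSeq (GRCm38.p6), matched by name for 179 of the 312 assays, with the seed in capitals. The first set shows families in which a member that fell differs by few bases from a member that did not pass the test. 
let-7e (fell): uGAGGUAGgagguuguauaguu
let-7c (fell): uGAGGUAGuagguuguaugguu
let-7a (not called): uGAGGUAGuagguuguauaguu
let-7f (not called): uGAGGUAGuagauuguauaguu
miR-29c (fell): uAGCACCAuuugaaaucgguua
miR-29a (not called): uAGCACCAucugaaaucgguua
miR-29b (not called): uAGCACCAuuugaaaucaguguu
miR-19a (fell): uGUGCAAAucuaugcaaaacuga
miR-19b (not called): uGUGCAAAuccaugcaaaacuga
miR-25 (fell): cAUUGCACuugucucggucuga
miR-92 (not called): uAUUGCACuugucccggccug
miR-429 (fell): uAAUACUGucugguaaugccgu
miR-200b (not called): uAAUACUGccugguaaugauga
Among these strands, let-7e lies at chr17:17830366-17830387, miR-29c at chr1:195037600-195037621 and miR-19a at chr14:115044048-115044070, all on the plus strand, and miR-25 at chr5:138165332-138165353 on the minus strand.
The second set holds further strands whose levels are given in every mouse below, and miR-194, which lost its signal.
miR-24 (fell): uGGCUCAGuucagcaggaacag
miR-21 (fell): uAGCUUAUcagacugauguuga
miR-34a (rose): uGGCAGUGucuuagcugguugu
miR-410 (rose): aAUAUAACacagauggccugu
miR-26b# (rose): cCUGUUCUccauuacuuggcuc
miR-192 (rose): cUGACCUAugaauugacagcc
miR-194 (not tested): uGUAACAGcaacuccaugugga
Of these, miR-34a lies at chr4:150068473-150068494, miR-410 at chr12:109743764-109743784 and miR-26b# at chr1:74394360-74394381 on the plus strand, and miR-21 at chr11:86584120-86584141 on the minus strand. The sequences of the assays' own primers were not used here.

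Several measures of the whole profile differed between the diets. Detected microRNA assays numbered 193, 192 and 191 in pool A in control mice 2, 4 and 5, and 178, 181 and 175 in flaxseed mice 11, 12 and 13. The groups did not overlap in pool A (192 ± 1 against 178 ± 3, SD, n = 3; exact two-sided permutation p = 0.1, the smallest that 3 against 3 allows, or 0.2 adjusted over the 4 measures). In pool B they overlapped, with 115 to 118 in control and 106 to 116 in flaxseed mice (exact p = 0.2, adjusted 0.267). The mean threshold cycle over assays detected in all mice, which is higher where there is less template, was 18.88, 19.06 and 18.78 in pool A in control mice and 19.74, 19.15 and 20.23 in flaxseed mice, later by 0.80 cycles (exact p = 0.1, adjusted 0.2). In pool B it was 21.57 to 21.77 in control and 21.52 to 22.79 in flaxseed mice (exact p = 1). The gap from pool A to pool B was 2.69 to 2.81 cycles in control mice, 2.41 and 2.56 in flaxseed mice 12 and 13, and 1.78 in mouse 11. The 10 control RNA assays averaged 15.95 to 16.68 cycles in control and 15.86 to 17.42 in flaxseed mice, which overlapped. In the deposited table, 40.0% to 42.6% of the microRNA cycles of unirradiated control mice carry a 4th decimal and 0% of those of unirradiated flaxseed mice do, so whatever sets the decimals and the diet cannot be told apart in this comparison. The part of these measures in the results below was not tested.

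The lung label fits the markers of its cell types. miR-126 of the endothelium crossed the threshold at 10.04 to 10.59 cycles in control mice, the epithelial miR-200c (assay 002300A) at 14.62 to 14.96, and the smooth muscle microRNA miR-145 at 12.62 to 12.66, while no named signal for the liver microRNA miR-122 was found. Cycles are compared here with the detection limit of 28 cycles, not between microRNAs, since each assay has its own efficiency.

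On levels relative to the mean of 260 microRNAs of the same mouse, with a difference of 1 cycle read as 1 on the log2 scale, 36 of the 296 assays passed an adjusted p under 0.05 in limma (12.2%), and these are called. Of these, 15 rose (5.07%) and 21 fell (7.09%), and 86 had an unadjusted p under 0.05. The directions were split between the pools. In pool A, 19 of 181 fell (10.5%) and 9 rose (4.97%), whereas in pool B 2 of 115 fell (1.74%) and 6 rose (5.22%). The falls in pool A were deep, from -1.09 to -6.54, and the rises were shallow, from 0.73 to 1.33. Differences beyond -2 were seen for 19 assays of pool A and 1 of pool B. The median of all tested assays was itself 0.22 above control on this scaling, from -0.37 without normalization to 0.46 on the median assay, so small rises are relative to that. The median was 0.21 in pool A and 0.24 in pool B.

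**Figure D1:**
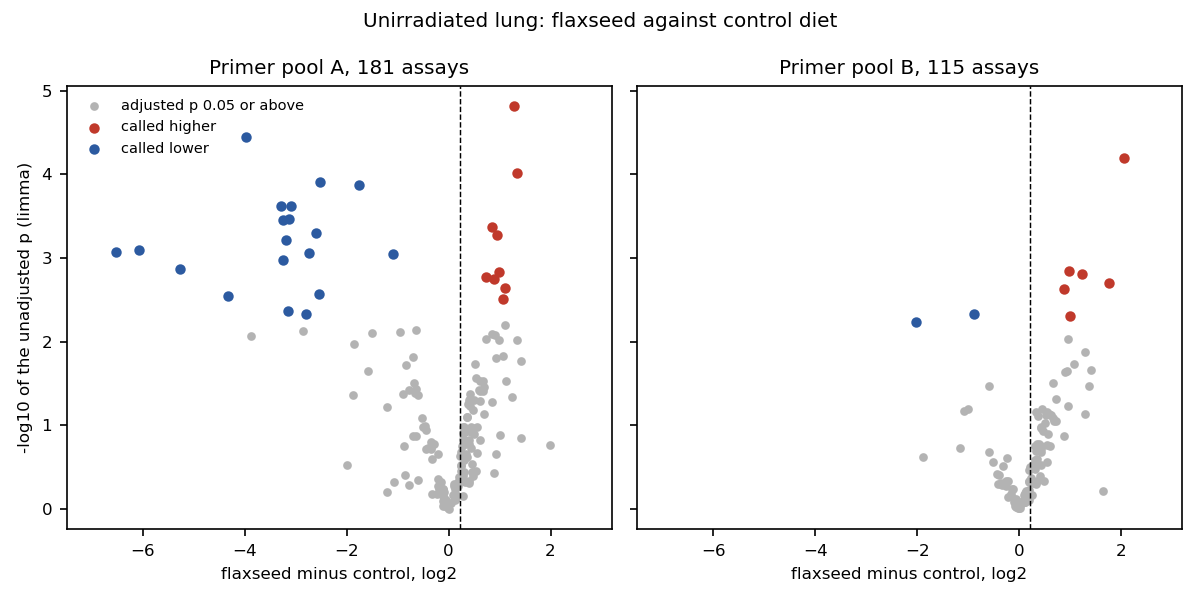
Difference between flaxseed and control diet in unirradiated lung (log2, x axis) against the -log10 of the unadjusted limma p (y axis) for each tested assay, by primer pool; the dashed line is the median of all tested assays, 0.22. Pool A holds 19 of the 21 assays that fell, reaching -6.54, while the rises in both pools lie between 0.73 and 2.06.

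The deepest fall was that of let-7e, a member of the let-7 family, which restrains growth and marks differentiated cells. Its level was 4.85, 3.47 and 4.46 in control mice 2, 4 and 5, and -6.58, -0.67 and 0.41 in flaxseed mice 11, 12 and 13. All flaxseed mice lay far below all control mice, mouse 11 farthest, by -6.54 ± 1.41 (SE), or 92.9-fold (limma adjusted p = 0.0146), and by -4.32 without mouse 11. miR-29c, whose family represses collagen and other matrix genes, stood at 4.64, 3.98 and 4.61 in control and at -5.55, -0.47 and 1.00 in flaxseed mice. It fell by 6.08 ± 1.30 on the log2 scale, 67.7-fold (adjusted p = 0.0146), and the difference was -4.08 without mouse 11. miR-19a, of the growth-promoting miR-17 to miR-92 cluster, stood at 1.68, 2.06 and 0.88 in control and at -7.46, -1.98 and -1.76 in flaxseed mice. Its fall was -5.27 ± 1.22, 38.6-fold (adjusted p = 0.0196), with mouse 11 again lowest and -3.35 without it.

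miR-24, a microRNA with targets in the cell cycle, was measured at 8.50, 7.10 and 7.87 in control and at 0.12, 4.75 and 5.57 in flaxseed mice. The fall was -4.34 ± 1.12 (adjusted p = 0.028), and -2.60 without mouse 11. miR-25 stood at -0.32, 0.12 and -0.50 in control mice and at -4.95 and -3.48 in flaxseed mice 12 and 13, and had no threshold cycle in mouse 11, which the fit therefore leaves out. It fell by 3.98 ± 0.54 on the log2 scale, 15.8-fold (adjusted p = 0.00527). miR-21, a microRNA raised in inflamed and fibrotic tissue, stood at 5.10, 5.50 and 6.10 in control mice and at 2.79 and 3.27 in flaxseed mice 12 and 13; it too had no cycle in mouse 11. Without that mouse in the fit it fell by 2.53 ± 0.40, 5.79-fold (adjusted p = 0.00659). With undetected reactions set to 28 cycles, miR-21 was not called (limma adjusted p = 0.13). These microRNAs cross the threshold early in control mice, miR-21 at 13.75 to 14.80 cycles and miR-25 at 19.97 to 20.36, far before the limit of 28.

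The other falls of pool A were miR-124a (-3.30), known for its role in neurons, miR-195 (-3.25), a relative of miR-16 that slows the cell cycle, miR-467a (-3.25), miR-193b (-3.19), miR-125a-5p (-3.15), miR-34c (-3.14) of ciliated cells, and miR-423-5p (-3.09). Further ones were let-7c (-2.80), miR-23b (-2.74), miR-28 (-2.61), the epithelial miR-429 (-2.54), miR-340-5p (-1.77) and miR-93 (-1.09). Their adjusted p in limma ran from 0.00659 to 0.041. In miR-34c, miR-23b and miR-467a, mouse 11 crossed the threshold only past the limit, at 31.31, 28.87 and 29.60 cycles, and was left out of the fit; miR-423-5p was undetected in control mouse 2 and flaxseed mouse 13. All 19 were lower in each flaxseed mouse where they were detected than in any control mouse. They were also lower there than in any of the 6 irradiated mice. Of all 181 tested assays of pool A, 31 lay wholly below the control mice and 32 wholly above, and 10.5% were called lower. Since the 19 were called on these same values, their separation from the control mice adds no support. The share below the irradiated mice was not counted over all assays.

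The depth of these falls varied from mouse to mouse. The median shift from the control mean over the 19 assays was -5.11 in mouse 11 (14 detected), -2.83 in mouse 12 (19 detected) and -2.17 in mouse 13 (18 detected), against -0.12 to 0.11 in control mice. Mouse 11 was lowest or undetected in 17 of the 19. Without mouse 11, 18 of the 19 could be tested and all 18 were called, with differences from -0.98 to -4.32 and a median of -2.53 in place of -3.15. Without mouse 12 or 13, 13 and 14 could be tested and all of these were called. Without control mouse 4, 12 of 18 were called, the fewest when leaving out 1 of the 12 mice. With undetected reactions set to 28 cycles, 16 of the 19 were called, without miR-21, miR-423-5p and let-7c. Fitted on the 6 unirradiated mice alone, 5 of the 19 passed, with the same differences and a spread estimated from fewer mice. The irradiated mice, which the main fit adds to the spread, also varied less. Over all 296 tested assays the median SD was 0.28 in irradiated control and 0.21 in irradiated flaxseed mice. It was 0.37 in unirradiated control and 0.39 in unirradiated flaxseed mice. The part of this in the lost calls was not tested. The deepest falls also varied more among flaxseed mice. The SD was 3.77 against 0.71 in control mice for let-7e, 3.44 against 0.37 for miR-29c and 3.23 against 0.60 for miR-19a. It was smaller in flaxseed mice for miR-124a (0.74 against 1.41) and miR-21 (0.34 against 0.51). The main fit shares 1 spread per assay over all groups, so its SE and p do not reflect this inequality. The microRNAs that fell covered the range of levels in control mice from -3.62 to 7.82. Their mature strands, where matched (15 of 19), held a median of 42.9% G and C, against 45.5% in 115 other tested assays of pool A.

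**Figure D2:**
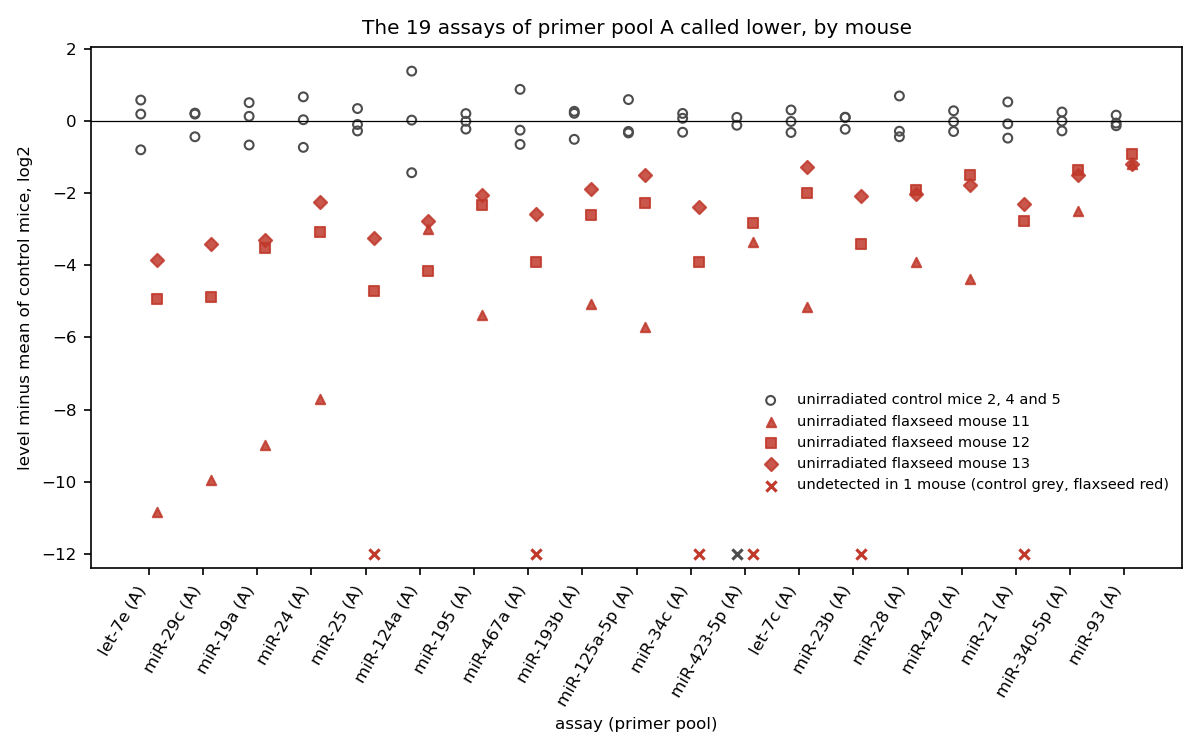
Level of each of the 19 pool A assays called lower, minus the mean of the unirradiated control mice (log2, y axis), for every unirradiated mouse; crosses at the bottom mark an undetected reaction and carry no value. The control mice lie near 0 and all flaxseed mice lie below them, with mouse 11 lowest or undetected in 17 of 19.

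Some microRNAs lost their signal in flaxseed mice and could not be tested. In pool A, 5 assays were detected in all 3 control and in none of the 3 flaxseed mice, and 6 more in 1 flaxseed mouse; no pool A assay went the other way. In pool B, 2 assays were detected in all 3 control mice and at most 1 flaxseed mouse, and 1 assay, miR-2135, in 1 control and 3 flaxseed mice. The clearest loss was miR-194, a microRNA of epithelia, with cycles of 18.999, 16.996 and 17.2405 in control mice, 16.985 to 17.789 in irradiated control mice, 17.154 to 17.6955 in irradiated flaxseed mice, and none in any unirradiated flaxseed mouse. It thus had no signal in 3 mice and a strong one in the other 9. miR-351 (assay 001067A) had cycles of 22.09 to 23.01 in control mice and none in flaxseed mice, whereas its other assay, 002063A, gave a difference of -0.08 ± 0.41 (adjusted p = 0.89). miR-409-3p (23.96 to 24.93 in control mice) and, in pool B, miR-1960, whose control values were spread from 14.47 to 26.36, had no cycle in any flaxseed mouse either. For miR-7 and miR-96 the reactions came past the limit or not at all: miR-7 moved from 24.19 to 24.83 cycles in control mice to 31.08 and 30.08 in mice 12 and 13 and none in mouse 11, and miR-96 from 25.10 to 27.40 to 31.74 in mouse 13 and none in the others. Detection in 1 flaxseed mouse remained for miR-135a, miR-379, miR-384-5p, miR-494, miR-501#, miR-682 and, in pool B, miR-1930. Some of these lay close to the limit, such as miR-135a, with 25.83, 24.47 and 26.29 cycles in control and 29.72, 27.57 and 28.08 in flaxseed mice. Others crossed near or before the control cycles in 1 flaxseed mouse and had no cycle in the rest. These were miR-494 (22.77 in mouse 11, 22.22 to 24.08 in control), miR-501# (21.41 in mouse 12, 21.81 to 23.49) and miR-682 (22.64 in mouse 11, 22.76 to 24.49). Of the 11 in pool A, 10 were detected in all 3 irradiated flaxseed mice.

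In several families, members that share a seed had unequal differences. In the let-7 family of 8 tested assays, let-7e and let-7c fell, while the other 6 lay between -0.20 (let-7a) and 0.86 ± 0.26 (let-7f, adjusted p = 0.0565). Counting bases from 1 at the 5′ end and writing the base of let-7a first, let-7e differs from let-7a by U9G, let-7c by A19G and let-7f by G12A, 1 base each; the differences of these 4 strands were -6.54, -2.80, 0.86 and, for let-7a, -0.20. miR-29a gave -0.34 ± 0.24 (adjusted p = 0.356) against -6.08 for miR-29c, from which it differs by C10U, written from miR-29a. miR-29b lay at -3.88 ± 1.20 (adjusted p = 0.0581), with levels of 0.12, -0.60 and 0.63 in control and of -7.39, -2.75 and -1.34 in flaxseed mice. miR-19b gave 0.16 ± 0.40 (adjusted p = 0.798) against -5.27 for miR-19a, and the strands differ by C11U, written from miR-19b. The labels do not say how well each assay tells such neighbours apart.

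The same held in the larger families. Of 6 tested assays with the seed of miR-17, miR-93 fell and the others ran from -0.46 (miR-106a) to 0.45 (miR-17). Of 6 with the seed of miR-16, miR-195 fell and the others ran from -0.52 (miR-497) to 0.73 (miR-322). miR-25 fell, while miR-92 lay at 0.43 ± 0.31 and miR-32 at -0.86 ± 0.97. miR-429 fell, while the 4 assays of miR-200b and miR-200c lay between -0.06 and 0.36. miR-125a-5p fell, while miR-125b lay at 0.35 and miR-351 (002063A) at -0.08, and miR-28 fell while miR-708 lay at -0.79 ± 1.16. These families are those of the 169 tested assays with a matched strand, in which 28 seeds were shared by at least 2 microRNAs and 12 of the 28 held a call. Among the 12, miR-34b-3p and miR-34c# (0.85 and 0.47) lay closer together, as did miR-192 and miR-215 (0.73 and 0.40). With 12.2% of all tested assays called, families with every member called would be rare in any case, so nothing is read from their count.

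**Figure D3:**
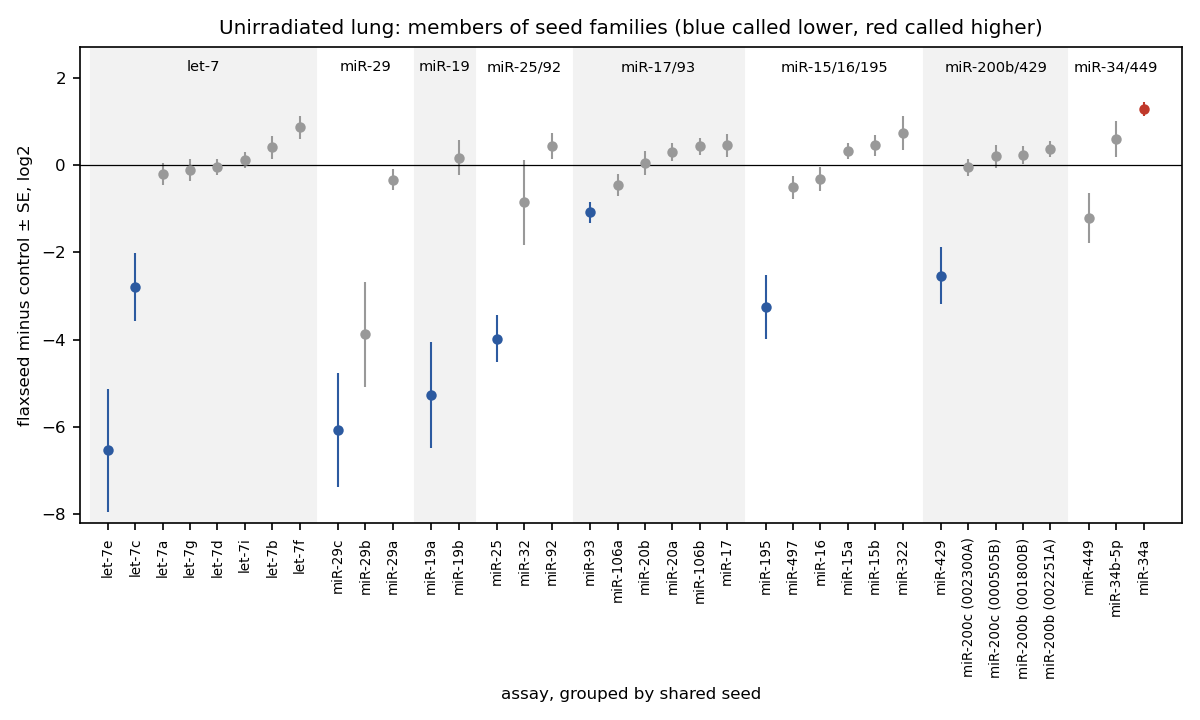
Difference between flaxseed and control diet (log2, ± SE, y axis) for members of 8 families that share a seed; blue points were called lower, red points higher and grey points were not called. Within let-7 the members span from -6.54 to 0.86, and in the miR-17 family from -1.09 (miR-93) to 0.45. In the miR-29 family miR-29b (-3.88, not called) also lies low. Only assays with a matched strand are shown, so miR-34c and miR-449b are absent from the miR-34 family.

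Both arms of several hairpins were measured. The main strand of miR-21 fell by 2.53, while miR-21# in pool B lay at 1.29 ± 0.63 (adjusted p = 0.216). miR-29c# lay at 0.26 ± 0.60, miR-24-2# at 0.43 ± 0.24, miR-34c# at 0.47 ± 0.28, miR-93# at -0.12 ± 0.21 and miR-423-3P at 0.96 ± 0.30 (adjusted p = 0.0584), all in pool B, against falls of -6.08, -4.34, -3.14, -1.09 and -3.09 in their partners in pool A. Within pool A, miR-340-5p fell and miR-340# lay at 0.40 ± 0.25, and the pool B assay named miR-340 lay at 0.10 ± 0.24. In miR-18a the order was the other way round, with miR-18a# of pool B falling by 0.89 ± 0.24 and miR-18a of pool A at 0.93 ± 0.71.

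Neighbours on the genome were likewise unequal. MicroRNA genes were grouped when within 10 kb on the same strand (GRCm38.p6). In the cluster at chr13:63300484-63301275, miR-24 fell while miR-27b lay at 0.62 ± 0.24 (adjusted p = 0.136). The same miR-24 strand also comes from chr8:84208518-84208921, where miR-27a lay at 0.34 ± 0.20, so its fall cannot be placed in either cluster. Likewise, miR-29b, miR-19b and miR-92 each have a second gene elsewhere. In the Mir17 cluster at chr14:115043671-115044506, miR-19a and miR-18a# fell, and miR-17, miR-18a, miR-20a, miR-19b and miR-92 lay between 0.16 and 0.93. In the Mir25 cluster at chr5:138165321-138165818, miR-25 and miR-93 fell and miR-106b lay at 0.42 ± 0.20. In the let-7e cluster at chr17:17830194-17830879, let-7e and miR-125a-5p fell and miR-99b lay at 0.28 ± 0.17 (adjusted p = 0.288). In the miR-29 cluster of chromosome 1, at chr1:195037040-195037634, miR-29c fell and miR-29b lay at -3.88. miR-192 rose, while miR-194, which comes from a close neighbour of it on chromosome 19 and from a second gene on chromosome 1, had no signal.

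The rises of pool A included 3 of the 15 tested assays linked to p53, the tumour suppressor that answers DNA damage. Of the other p53-linked assays, miR-34c fell (-3.14) and 11 were not called. miR-34a, a direct p53 target, stood at 2.07, 2.43 and 2.44 in control and at 3.66, 3.66 and 3.46 in flaxseed mice. The groups were well apart, and the rise was 1.28 ± 0.17, 2.43-fold (adjusted p = 0.00453), the smallest adjusted p of the comparison. miR-34b-3p rose by 0.85 ± 0.17 and miR-192, also linked to p53 and found in epithelia, by 0.73 ± 0.17, from 1.91, 1.60 and 1.92 in control to 2.55, 2.62 and 2.44 in flaxseed mice. miR-410, of the imprinted Dlk1-Dio3 locus, stood at -4.65, -4.62 and -4.31 in control and at -3.36, -3.27 and -2.96 in flaxseed mice, a rise of 1.33 ± 0.22 (adjusted p = 0.00659). miR-376c of the same locus rose by 1.12 ± 0.28. miR-375, of epithelial and endocrine cells, stood at 1.58, 1.29 and 1.75 in control and 2.53, 2.42 and 2.53 in flaxseed mice, a rise of 0.96 ± 0.19 (adjusted p = 0.012). miR-335 (1.07), miR-345-5p (1.00) and miR-532-3p (0.90) completed the 9. The second arms miR-335# and miR-345-3p gave 1.34 ± 0.42 and 0.73 ± 0.23, both at an adjusted p of 0.0584. The pool B assay named miR-345 lay at -0.03 ± 0.24 (adjusted p = 0.928). The pool A assay named miR-532 lay at 0.19 ± 0.25 (adjusted p = 0.638), against 0.90 for miR-532-3p.

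In pool B the largest rise was that of miR-26b#, the less used arm of its hairpin. Its level was -7.60, -6.62 and -7.99 in control and -5.28, -5.44 and -5.31 in flaxseed mice, a rise of 2.06 ± 0.32, 4.17-fold (adjusted p = 0.00634). The main strand miR-26b in pool A lay at 0.67 ± 0.26 (adjusted p = 0.136). miR-449b, of multiciliated cells, stood at -3.57, -4.41 and -5.41 in control and -2.84, -3.13 and -2.15 in flaxseed mice and rose by 1.76 ± 0.43 (adjusted p = 0.0223). miR-1937B (1.24), miR-33a# (1.00), let-7a# (0.98) and miR-872# (0.89) also rose, and the main strands let-7a (-0.20 ± 0.25) and miR-872 (1.43 ± 0.90) of pool A were not called. miR-712 stood at -0.75, 1.34 and 0.42 in control and -0.94, -2.55 and -1.56 in flaxseed mice, a fall of -2.02 ± 0.57 (adjusted p = 0.0479), with the lowest control and the highest flaxseed mouse close together. miR-18a# had levels of -5.91, -5.67 and -6.05 in control and of -6.87 and -6.66 in flaxseed mice 12 and 13, and crossed at 28.26 cycles in mouse 11, just past the limit. Neither fall of pool B was steady: 0 were called without any 1 of mice 4, 5, 7, 8, 12, 13, 15, 17 and 18, and over all alternatives miR-712 was lost in 13 of 26 and miR-18a# in 12 of 25. The next assays of pool B below control were miR-213 (-0.59 ± 0.24), miR-671-5P (-0.999 ± 0.48) and miR-1839-3P (-1.08 ± 0.53), at adjusted p of 0.146, 0.202 and 0.21.

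The rises depended on the scaling and on control mouse 4. All 15 were above control under each of 7 other scalings, but the number still called ran from 1 to 15. With the control RNAs as the reference 4 stayed called (miR-34a, miR-410, miR-1937B and miR-26b#), and without normalization miR-26b# alone did. The rises also depended on the mice and the model: 6 of the 15 stayed called without control mouse 4, 3 in the fit of the unirradiated mice alone and 4 with array weights. The 19 falls of pool A kept 18 or 19 calls under the same scalings. The share of calls that were rises was 41.7% with the main scaling, 24.1% with quantile normalization, 13.3% with the control RNAs, 66.7% with the median assay, 3.45% without normalization and 30.8% when centred on the median difference.

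**Figure D4:**
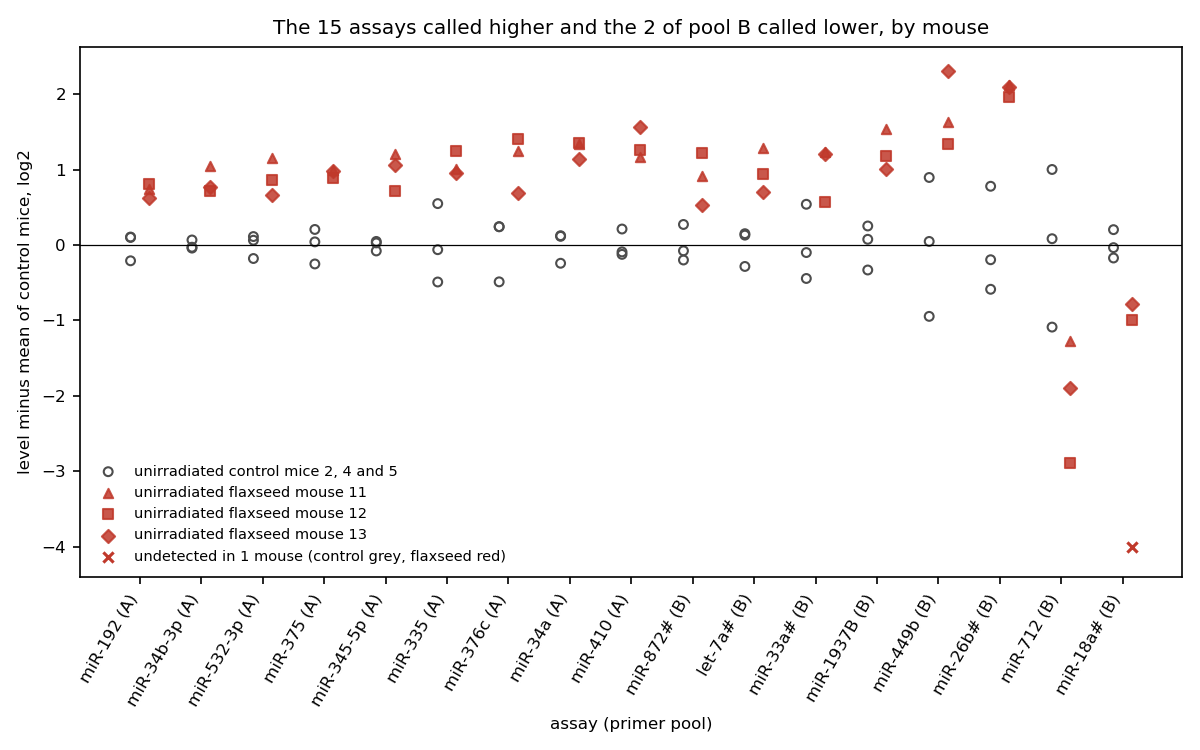
Level minus the mean of the unirradiated control mice (log2, y axis) in every unirradiated mouse for the 15 assays that rose and the 2 of pool B that fell; the cross marks an undetected reaction. The 3 flaxseed mice lie close together for most rises, for miR-26b# between -5.28 and -5.44 in level.

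Lists of microRNAs with a shared role moved in part only. Each list's median stands beside 0.22 for all 296 assays, of which 12.2% were called. Of 15 tested p53-linked assays, 3 rose (miR-192, miR-34a and miR-34b-3p) and miR-34c fell (median 0.40). Of 11 inflammation-linked assays, 0 rose and miR-21 fell (0.24), with miR-146b at -0.59 ± 0.26. Of 11 fibrosis-linked assays, miR-21 and miR-29c fell and 0 rose (-0.10), and of 10 linked to oxygen and stress, miR-28, miR-93 and miR-24 fell (-0.55). The imprinted Dlk1-Dio3 locus had 11 tested assays, of which 2 rose, miR-376c and miR-410 (0.34). Of 7 in the miR-30 family 0 were called, the lowest being miR-30b at -2.87 ± 0.87 (adjusted p = 0.0565), with levels of 7.75, 5.78 and 7.13 in control and 1.63, 4.96 and 5.47 in flaxseed mice. The median of the let-7 family (-0.09, 0 rose and 2 fell of 8) lay at -0.31 relative to that of all assays. Over 8 scalings this offset ran from -0.33 to -0.02. The medians of the miR-17 to miR-92 cluster with its paralogs (0.16, 0 and 3 of 11) and of the miR-99, miR-100 and miR-125 families (0.28, 0 and 1 of 5) lay near that of all assays. Those of the miR-29 family (-3.88, 0 and 1 of 3), the miR-15 and miR-16 family (-0.29, 0 and 1 of 7) and the miR-23, miR-24 and miR-27 clusters (-1.20, 0 and 2 of 4) were below 0 under all 8 scalings, as was that of the oxygen and stress list. The sign of the other pathway, family and locus medians turned with the scaling. The median of the p53-linked list stayed above that of all assays, and that of the fibrosis and the oxygen and stress lists below it, under all 8 scalings; the order of the inflammation and Dlk1-Dio3 lists and that of all assays flipped.

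Markers of single cell types are given beside the 12.2% of all tested assays that were called, and with lists this short a count of 0 says little about a cell type. In bulk lung, fewer cells of a type and less RNA per cell cannot be told apart. The 4 myeloid assays had 0 calls, with miR-223 at 0.46 ± 0.41 (002295A) and 0.16 ± 0.46 (000526B) and miR-142-3p at -1.85 ± 0.60 (adjusted p = 0.0652). The 4 lymphoid assays had 0 calls, with miR-150 at -0.96 ± 0.29 (adjusted p = 0.0565) and miR-342-3p at -0.01 ± 0.23. The 2 endothelial assays, miR-126 and miR-126#, lay at -0.67 ± 0.29 and -1.50 ± 0.46 (adjusted p = 0.159 and 0.0565), and the 3 of smooth muscle and the 4 of fibroblasts lay between 0.20 and 0.62. Of 10 epithelial assays, miR-375 rose and miR-429 fell (median 0.21). The 5 ciliated cell assays went both ways, with miR-34b-3p and miR-449b up, miR-34c down (median 0.60, the same as for the seed family of miR-34 and miR-449), miR-34b-5p at 0.60 ± 0.42 and miR-449 at -1.22 ± 0.58. The 4 striated muscle assays had 0 calls and went both ways (median 0.30). Of these, miR-1 gave 1.25 ± 0.55 and 0.12 ± 0.36 by its assays 002064A and 002222A. miR-133b lay at 0.48 ± 0.27 and miR-133a at -0.90 ± 0.39 (adjusted p = 0.159). The red cell microRNA miR-451 lay at -0.61 ± 0.78. Cell type lists describe these lungs by count and median, without a test of their own.

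For 12 microRNAs a second assay had a signal, and in 11 both could be tested. None of these was called, so the pairs check no fall or rise. The differences of the assays lay within 0.35 of each other for miR-143, miR-200b, miR-200c, miR-214, miR-223, miR-224, miR-324-3p, miR-381 and miR-455. They were wider apart for miR-190b (-1.08 ± 1.44 and 0.44 ± 0.33) and for miR-1. The pair that held a loss of signal, miR-351, disagreed, as given above.

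The same diet was compared in irradiated mice, which are separate animals. There 15 of 296 assays were called (5.07%). Of the 19 pool A assays that fell without radiation, 0 were called lower with it, 4 lay below control, and their median was 0.41, from -1.83 to 1.47. let-7e lay at 0.17 ± 1.41 and miR-29c at 1.47 ± 1.30 there. miR-25 stood at -1.10, -0.62 and -0.42 in irradiated control and at -0.61, 0.92 and -0.56 in irradiated flaxseed mice, a difference of 0.63 ± 0.49. Of the 9 pool A rises, 7 lay above control with radiation, and 1, miR-34a, was called there too (0.71 ± 0.17, adjusted p = 0.0333). Beside these counts, 69 of all 181 tested pool A assays (38.1%) had the same sign in both radiation states. The difference between the radiation states, the interaction, was called for 25 of 296 assays (8.45%). Among the 36 called without radiation, 15 had a called interaction, 10 of them pool A falls, with miR-29c (7.55 ± 1.85) and miR-25 (4.61 ± 0.73) the largest of these 10, and miR-21 at 2.98 ± 0.54. The interaction contains the same unirradiated differences by which the 36 were called. A share above that of all assays is therefore built in, and nothing is read from it. These interaction calls rest on single mice and on the scaling: 0 of any assay were left with the control RNAs as reference or without irradiated mouse 7, 8 or 18. Without mouse 17 there were 2, without mouse 2 there were 12, and without mouse 9 there were 16.

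**Figure D5:**
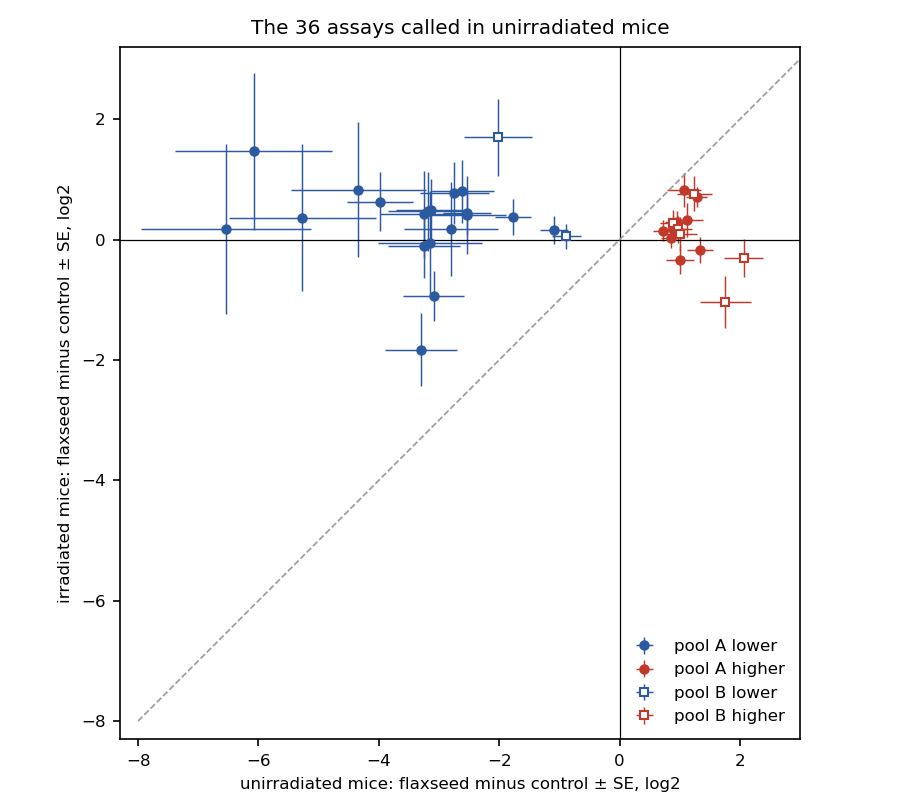
Difference between flaxseed and control diet (log2, ± SE) in unirradiated mice (x axis) and in irradiated mice (y axis) for the 36 assays called in unirradiated mice; the dashed line marks equal differences. The pool A falls, down to -6.54 without radiation, lie between -1.83 and 1.47 with it.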

How the data were processed

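Lung RNA was reverse transcribed (100 ng, Megaplex pools A and B), pre-amplified for 12 cycles and run on OpenArray plates, per the labels' protocols. The authors deposited relative threshold cycles, a log2 scale that runs downward, by assay position, and a table of normalized log2 values by name. The labels do not say how cycles were called. Names were carried over by ranking assays inside each mouse in both tables (322 of 326 matched). The match did not use the order of the tables, in which 208 of the 322 stand at the same place. Cycles under 28 counted as detected. Each mouse's mean over 260 microRNA assays detected in all 12 mice was subtracted and the sign turned. Undetected reactions were missing, in 36 tested assays. All 12 mice entered 1 limma 3.58.1 fit (R 4.3.3) of 4 group means, with 8 residual and 2.41 prior degrees of freedom, and Benjamini-Hochberg adjustment over 296 assays. The fit was tested on simulated data. Nothing says how the mice were housed, so p-values measure the spread between these samples. OpenArray reactions carry no read depth; the number of mice limits the precision. Named microRNAs are all calls, the smallest unadjusted p where fewer than 5 were called, second assays and arms, and members of lists and seed families. The comparison, the members and the 23 lists were chosen with earlier results of these data known. Alternatives were 6 other scalings, Crt limits of 26, 30 and none, other filters and models, fits lacking 1 mouse, and a threshold of 0.10. Centring on the median difference was chosen after seeing the data.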

Additional observations from a re-analysis of the deposited data

Results flagged for a closer look

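For 15 of the 36 assays called in unirradiated mice, the difference between flaxseed and control diet was itself different in irradiated mice by the interaction term of the limma fit (irradiated minus unirradiated, log2). This term contains the unirradiated difference by which the 36 were called, so nothing is read from the count of 15. Among the pool A falls it was 7.55 for miR-29c, 4.61 for miR-25, 3.66 for miR-193b, 3.62 for miR-34c, 3.52 for miR-23b, 3.42 for miR-28, 3.14 for miR-467a, 2.98 for miR-21, 2.14 for miR-340-5p and 1.24 for miR-93. Among the rises it was -1.33 for miR-345-5p, -1.50 for miR-410, -2.80 for miR-449b and -2.36 for miR-26b#, and for miR-712 it was 3.72. The 4th decimal of the deposited cycles runs across the 4 groups in the same way as this interaction (40.0% to 49.7% of values in unirradiated control and irradiated flaxseed mice, 0% in the other 6), so the interaction and whatever sets the decimals cannot be told apart.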

How the results depend on the processing

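The 36 calls became 60 with the median assay as reference, 57 at an adjusted p under 0.10, 16 with array weights and 9 in a fit of the compared groups alone, which estimates the spread from 6 mice; leaving out each mouse gave 19 (without control mouse 4) to 42. All pool A assays called lower, 19 in the report, numbered 12 with array weights and 6 in the fit of the compared groups alone, 5 of them among the 19 (13 to 22 leaving out each mouse). Pool A rises went from 9 to 4 and pool B rises from 6 to 2 without control mouse 4. The 25 interaction calls became 16 with quantile normalization, 0 with the control RNAs, 7 with the authors' values, 16 with a limit of 30 or none and 11 when centred on the median difference (0 to 35 leaving out each mouse). The 15 calls in irradiated mice became 4 with the control RNAs and 1 without normalization. The cause was not tested where the setting does not itself state it. No difference of a called assay turned its sign. miR-25 stayed called in all 26 alternatives and miR-26b# in all 28. Detected assays of pool A differed by -14, and by -16.3, -12 and -10.3 with limits of 26, 30 and none. No paired analysis was possible because the mouse numbers are not shared between groups. With 3 mice a group and a limit of 28 cycles, small differences of low assays could be missed, though some were called, such as let-7a# (0.98, at a mean level of -3.26 in unirradiated control mice).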

Other observations

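The control RNAs, which entered neither the tests nor the reference, did not move alike. Relative to the mean of the microRNAs, the flaxseed minus control difference of U6 was -0.22 in pool A and 0.26 in pool B, and that of snoRNA202 was 0.17 and 0.48. Y1 lay 1.38 higher in pool A and 0.87 higher in pool B, with cycles of 19.62, 21.70 and 20.51 in control and of 20.05, 18.95 and 20.55 in flaxseed mice in pool A.

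Across all tested assays, the differences without and with radiation were close to unrelated (Pearson r of -0.07 and Spearman rho of -0.02 over 296 assays of separate mice; -0.17 in both over 181 assays of pool A, and 0.25 in both over 115 of pool B). These assays share the plates and the reference of each mouse and are not independent replicates. In pool A, assays with higher levels in control mice had somewhat lower differences (r of -0.23), and the share of G and C in the matched strand ran with little of the difference (r of 0.08 over 130 assays).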
